A study of Mus musculus with 4 samples.

Results

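The replication-dependent core histone genes were taken from the expression table of a *Nat10* knockdown in female germline stem cells (FGSCs). They are the protein-coding genes whose symbol starts with *Hist1h*, *Hist2h*, *Hist3h* or *Hist4h*, without the linker genes of the *Hist1h1* symbols. The rule found 61 of the 53465 genes in the table, of which 18 encode H2A, 18 H2B, 12 H3 and 13 H4. The *Hist1* cluster holds 48 of them, the *Hist2* cluster 10, the *Hist3* cluster 2 and *Hist4* 1. In the shNAT10 libraries 54 of the 59 genes that could be tested were higher, beside 8.41% of all genes tested, and the median change was 2.47-fold.

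The cells are mouse FGSCs, labelled as germ stem cells of the ovary, and all of them carried a lentiviral shRNA and went through drug selection in culture, according to the methods. The shNC cells carried a control shRNA and the shNAT10 cells an shRNA against *Nat10*, which encodes the enzyme that writes N4-acetylcytidine (ac4C) into RNA. Each group has 2 libraries of long RNA-seq, which were made to compare gene expression under the knockdown beside a map of RNA interactions. The age and time after infection are not given in the sources used here, and although the study calls the libraries of a group biological replicates, it is not said how their cultures were separated, so that the p-values below measure the spread between these libraries.

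Core histones form the protein spool of the nucleosome, and their replication-dependent genes are transcribed mainly in S phase, when new DNA has to be packaged. Their mRNAs are unusual, since they typically lack introns and end in a conserved stem-loop in place of a poly(A) tail. The stem-loop is bound by SLBP, which carries the mRNA through processing, translation and rapid decay at the end of S phase. In bulk RNA, more cells in S phase and more histone mRNA per cell cannot be told apart.

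The stem-loops are shown for the highest expressed tested gene of each class whose annotated transcript holds one, with the 16 bases of the stem-loop in capitals. The letters come from the GENCODE M21 transcripts of GRCm38 (mm10), in the sense of each gene.
Hist2h2ac: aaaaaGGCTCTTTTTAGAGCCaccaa
Hist1h2bb: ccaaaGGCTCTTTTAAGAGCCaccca
Hist1h3e: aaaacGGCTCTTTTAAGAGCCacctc
Hist1h4h: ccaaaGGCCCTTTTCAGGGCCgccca
They lie at chr3:96220413-96220438 on the minus strand, chr13:23747198-23747223 on the plus strand, chr13:23561898-23561923 on the minus strand and chr13:23531453-23531478 on the plus strand. *Hist1h2bb* and *Hist1h3e* hold the same 16 letters. The form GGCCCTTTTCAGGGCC was found in 7 tested genes, all of them H4 genes. The form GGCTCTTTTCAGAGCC was found in 21 tested genes of the H2A, H2B and H3 classes. In all, the stem-loop was found in an annotated transcript of 40 of the 61 genes, and within the last 100 bases in 22 of them (36.1%). Over all protein-coding genes, the core histone genes included, it was found there in 23 of 21901 (0.105%). Of the 21 tested genes with the stem-loop in the last 100 bases, 21 were called higher, and their median log2 fold change was 1.45. Of the 38 tested genes without it there, 33 were higher, with a median of 1.23. The annotated end of a transcript may lie before or beyond the stem-loop (369 bases beyond its first match in *Hist1h3e*), and 11 of the 61 gene models hold no UTR at all, so a missing match says only that these letters are not in the annotated transcript.

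Promoters, taken as the 250 bases before and 50 bases after the start in RefSeq (GRCm38.p6), were matched for 56 of the 61 genes. On both strands the letters TATAAA of the TATA box were searched, then the short box CCAAT, common in promoters, and the octamer ATTTGCAT, known from H2B promoters. Windows with such a match, in capitals, are shown for the highest expressed tested gene of each class.
Hist1h2ai: ccaatgtgtaaCCAATgaaatctctccgtt
Hist1h2bb: ttgagtctcttATTTGCATaaagcctttga
Hist1h3e: ctggccagaatCCAATcagagcgacgcatt
Hist1h4k: gcccgccgcagTATAAAaaggcggcgctca
They lie at chr13:21716313-21716342 on the plus strand, chr13:23746633-23746662 on the plus strand, chr13:23562421-23562450 on the minus strand and chr13:21750551-21750580 on the minus strand. CCAAT was present in all 18 H2A, 16 H2B and 10 H3 promoters matched, but in 3 of the 12 H4 promoters, against 37.4% of all 32851 promoters of this length. ATTTGCAT was present in 7 H2A and 6 H2B promoters and in 0 of the H3 and H4 promoters, against 1.74% of all promoters. In the sense of each gene, the H2A matches were all in reverse and the H2B matches all forward. Some sites were counted for both neighbouring genes: *Hist1h2aa* and *Hist1h2ba*, *Hist1h2ae* and *Hist1h2bg*, and *Hist1h2ah* and *Hist1h2bk*. TATAAA was present in 31 of the 56 (55.4%), against 13.6% of all. The tested genes with ATTTGCAT had a median log2 fold change of 1.37 (13 genes) and those without it 1.28 (41 genes), and for CCAAT the medians were 1.37 (45 genes) and 1.27 (9 genes). A match of letters is a description and does not show that a factor binds there.

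The knockdown was seen in the libraries. *Nat10* had 7.79 and 5.42 FPKM (fragments scaled to exon length and to a divisor for each library) with shNC against 2.95 and 3.04 FPKM with shNAT10, in the order of their numbers here and below. The shNAT10 values were both under the lower shNC value, with a log2 fold change of -1.09 (SE 0.21; limma, p = 0.00411, adjusted p = 0.123), and the exact permutation test gave p = 0.3333, the smallest that 2 against 2 libraries allow. The call needed both shNAT10 libraries: without shNAT10-1 the value was -1.07 and without shNAT10-2 -1.11, neither at p of at most 0.05.
The recovered fragments on genes numbered 11057922 to 14902438 per library. Genes were called where the fold change exceeded 1.2 and p before adjustment did not exceed 0.05, the threshold of the paper. The 11 germline markers summed to 34.4 and 44.2 FPKM with shNC against 42.5 and 50.1 FPKM with shNAT10. Of this sum 99.6% came from *Ifitm3* (9.29 to 33.6 FPKM), *Kit* (14.5 to 24.5 FPKM) and *Sycp3*, the 3 that could be tested. Of these *Kit* was called lower (log2 fold change -0.60) and 0 higher, and the list's share of the protein-coding fragments was 0.0355% and 0.0318% with shNC against 0.0242% and 0.0265% with shNAT10. *Ddx4*, which the paper used to mark germ cells, was among the 8 not tested, with a mean under 0.1 FPKM. *Pou5f1*, *Dazl*, *Dppa3*, *Tfap2c* and *Stra8* were listed at 0 in all libraries. So was *Rmrp*, an RNA that every cell uses, but it is among the listed RNAs without a poly(A) tail and so unlike these mRNAs. Whether a listed 0 is a failed estimate was not tested. The leukocyte markers summed to 513 and 570.3 FPKM in shNC and to 406 and 429 FPKM in shNAT10. Of those 8 leukocyte markers 5 were called lower in shNAT10, beside 7.83% of all genes, and 0 higher. *Cpa3*, a mast cell protease, was at 245 to 272 FPKM in all 4 libraries. Of the 8 mast cell markers 4 could be tested, with 1 called higher (*Ms4a2*, log2 fold change 2.12) and 1 lower (*Gata2*, -0.33), and *Fcer1a* and *Tpsb2* were listed at 0. The 2 tested granulosa markers were near 0, with none called, and of the 8 tested fibroblast markers 3 were called higher, beside 8.41% of all genes. The part of these cells in the histone values was not tested.

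Together the 61 genes summed to 7749.6 and 7958 FPKM in shNC-1 and shNC-2 and to 18974 and 17217 FPKM in shNAT10-1 and shNAT10-2. Both shNAT10 libraries were more than 2 times above both shNC libraries, and the group means of the sums differed 2.30-fold. This is 3.87% and 3.77% of the FPKM of all protein-coding genes in shNC and 9.14% and 8.44% in shNAT10. Histone mRNAs are short, so their share of the protein-coding fragments was smaller, at 0.723% and 0.747% in shNC and 1.82% and 1.66% in shNAT10.

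Gene by gene, 59 of the 61 had a mean of at least 0.1 FPKM and were tested with limma on log2(FPKM + 0.1), and all 59 also had that mean in the shNC libraries alone. *Hist2h2aa1* and *Hist2h3c1* were listed at 0 in every library and were not tested. Of all 20116 genes tested, 8.41% were called higher and 7.83% lower, or 1691 and 1576 genes. Of the 59 core histone genes 54 were called higher and 0 lower. This balance over all genes depended on the scaling: with libraries scaled to the same FPKM total of protein-coding genes other than histones, 2229 genes were called higher and 1053 lower, and the 54 core histone genes were again called higher. The call was not made for *Hist1h2aa*, *Hist2h2ab*, *Hist2h2be*, *Hist2h3c2* and *Hist3h2a*. The log2 fold changes had a median of 1.30, with quartiles of 1.00 and 1.53, while the median of all genes tested was 0.01. Both shNAT10 libraries lay above both shNC libraries for 54 core histone genes (23.9% of all genes) and below them for 1 (24.1% of all genes). That gene is *Hist1h2aa*, with 4 fragments over the 4 libraries.

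After adjustment over all genes tested, 20 core histone genes had an adjusted p under 0.05 in limma, all of them in the *Hist1* cluster, against 0.333% of all genes. The number depended on the fit. It was 0 with any 1 of the 4 libraries (shNC-1, shNC-2, shNAT10-1 or shNAT10-2) left out, with 36 to 47 genes then still at the unadjusted threshold, and it was 53 higher and 0 lower in a limma-voom fit of the recovered fragments, in which 4.23% of all genes were called higher and 3.64% lower. The 54 genes called higher kept a positive log2 fold change in each of the 4 fits that left out a library, and 34 of them kept the call in each.

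**Figure D1:**
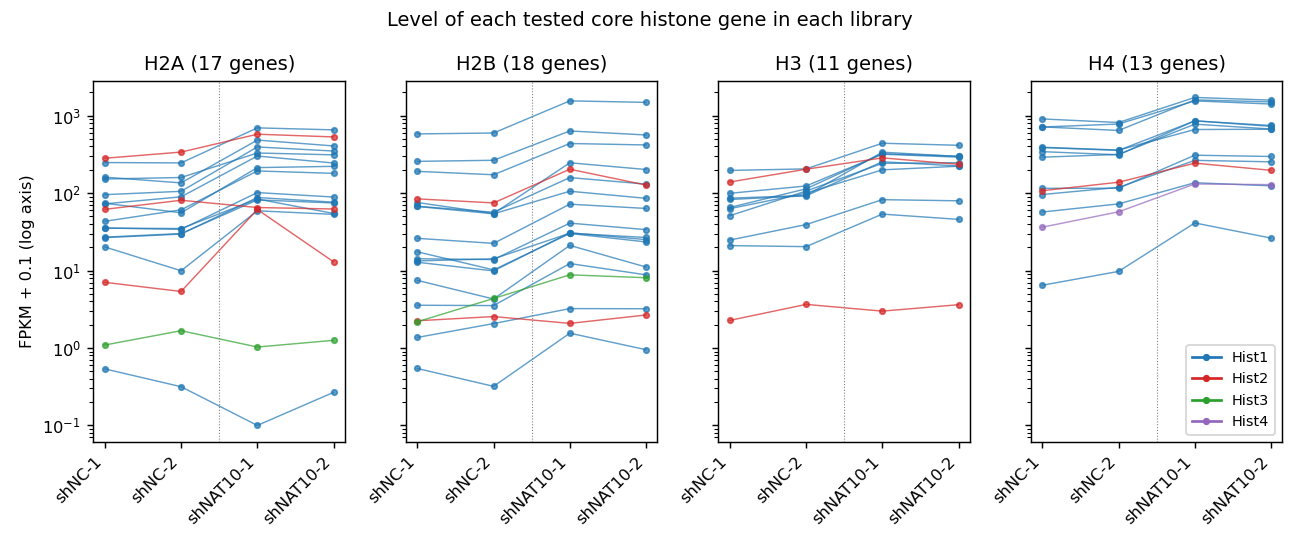
Level of each tested core histone gene in each of the 4 libraries (FPKM + 0.1, log axis), with 1 line per gene, 1 panel per class and colours for the cluster. The lines step up between shNC-2 and shNAT10-1 over levels that reach from under 1 to over 1000 FPKM, and the *Hist2* and *Hist3* lines include most of those that stay flat.

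The class with the highest level was H4, the histone at the centre of the nucleosome that pairs with H3. Its 13 genes summed to 4159.95 and 4088 FPKM in shNC and to 9135 and 8329.8 FPKM in shNAT10. All 13 were called higher, with a median log2 fold change of 1.19 and a range of 0.83 to 2.05. *Hist1h4k*, the histone gene with the highest mean level, had 906 and 814 FPKM with shNC against 1717 and 1583 FPKM with shNAT10. Both shNAT10 values were above both shNC values, with a log2 fold change of 0.94 (SE 0.13; limma, adjusted p = 0.0807), and the call was lost without shNAT10-1 (0.88).
*Hist1h4h* had 715 and 643 FPKM with shNC against 1595 and 1503 FPKM with shNAT10 (log2 change 1.19, SE 0.12; limma, adjusted p = 0.0507). *Hist1h4c* had 712 and 779 FPKM with shNC against 1550.4 and 1411 FPKM with shNAT10 (log2 change 0.99, SE 0.12). These 3 H4 genes made up 26.8% of the summed FPKM of all core histone genes.
*Hist1h4m*, at a far lower level, had the widest change of the class, from 6.35 and 9.64 FPKM to 41.0 and 26.1 FPKM (log2 change 2.05, SE 0.30). *Hist1h4d* had the smallest, from 390.1 and 359 FPKM to 662 and 667 FPKM (log2 change 0.83, SE 0.10). In *Hist1h4m* 88.1% of all stretches of 100 bases also occur in transcripts of other genes, and in *Hist1h4d* none does.

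H3, which pairs with H4, summed to 829 and 1098 FPKM with shNC against 2534 and 2356 FPKM with shNAT10. Of its 11 tested genes 10 were called higher, with a median log2 fold change of 1.41. *Hist1h3e* had the highest level, with 196 and 205 FPKM with shNC against 439.7 and 414 FPKM with shNAT10 (log2 change 1.09, SE 0.09; limma, adjusted p = 0.0452), and it was also the *Hist1* H3 gene with the smallest change.
*Hist1h3g* had 85.8 and 93.1 FPKM with shNC against 337 and 297 FPKM with shNAT10 (log2 change 1.82, SE 0.11; limma, adjusted p = 0.0443). *Hist1h3a* had 99.2 and 123 FPKM with shNC against 317 and 291 FPKM with shNAT10 (log2 change 1.46, SE 0.14; limma, adjusted p = 0.0489). *Hist1h3h* had the largest change of the class, from 65.0 and 113 FPKM to 322 and 299 FPKM (log2 change 1.85, SE 0.28), and lost the call without shNAT10-1 (1.80) or shNAT10-2 (1.91).
The shNC libraries differed more from each other for H3 than for the other classes. shNC-2 was above shNC-1 for 10 of the 11 H3 genes, with a median log2 difference of 0.55, while the medians for the other classes were 0.07 for H2A, -0.16 for H2B and 0.12 for H4. The shNAT10 libraries differed the other way, with shNAT10-2 above shNAT10-1 for 8 of all 59 genes.

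H2A and H2B, the pair that flanks the H3 and H4 tetramer, had wider ranges of level. H2A summed to 1339 and 1413 FPKM with shNC against 3722 and 3319 FPKM with shNAT10, a 2.56-fold difference of the means, beside 2.54-fold for H3, 2.44-fold for H2B and 2.12-fold for H4. Differences between classes were not tested. Of 17 tested H2A genes 14 were called higher, with a median log2 fold change of 1.46. *Hist1h2ai* had 248 and 245 FPKM with shNC against 694 and 655 FPKM with shNAT10. The libraries of a group were close to each other and the groups far apart (log2 change 1.45, SE 0.09; limma, adjusted p = 0.0443).
*Hist1h2ab* had 160.4 and 135 FPKM with shNC against 483 and 406 FPKM with shNAT10 (log2 change 1.59, SE 0.14; limma, adjusted p = 0.0474). *Hist1h2af* had 152 and 159 FPKM with shNC against 329 and 311 FPKM with shNAT10 (log2 change 1.04, SE 0.09; limma, adjusted p = 0.0452). *Hist1h2ao* had the largest change among *Hist1* H2A genes, from 20.04 and 9.83 FPKM to 58.9 and 53.0 FPKM (log2 change 1.99, SE 0.35), and lost the call without shNAT10-1 (1.91) or shNAT10-2 (2.06).
*Hist1h2aa*, known as a testis form of H2A, was hardly detected, at 0.437 and 0.216 FPKM with shNC against 0 and 0.167 FPKM with shNAT10 (log2 change -1.33, SE 0.74; limma, adjusted p = 0.455). At 4 fragments no difference could be detected at this depth.

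H2B summed to 1421 and 1359 FPKM with shNC against 3584 and 3212 FPKM with shNAT10, and 17 of its 18 genes were called higher, with a median log2 fold change of 1.27. *Hist1h2bb* had 580.4 and 596 FPKM with shNC against 1550.3 and 1482 FPKM with shNAT10. Its shNAT10 values were both more than 2 times its shNC values (log2 change 1.37, SE 0.11; limma, adjusted p = 0.0443).
*Hist1h2bg* had 257 and 265 FPKM with shNC against 633 and 562 FPKM with shNAT10 (log2 change 1.19, SE 0.10; limma, adjusted p = 0.0457), and *Hist1h2bl* had 191 and 172 FPKM with shNC against 436 and 418 FPKM with shNAT10 (log2 change 1.24, SE 0.10; limma, adjusted p = 0.0443). These 3 genes made up 74.6% of the H2B sum. *Hist1h2bm* changed most, from 75.4 and 54.3 FPKM to 246 and 201 FPKM (log2 change 1.80, SE 0.20; limma, adjusted p = 0.0603).
*Hist1h2bf* changed least among the *Hist1* H2B genes, from 67.0 and 53.9 FPKM to 105 and 85.5 FPKM (log2 change 0.66, SE 0.16), and its call was lost without shNC-1 (0.82), shNC-2 (0.50), shNAT10-1 (0.51) or shNAT10-2 (0.81).

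**Figure D2:**
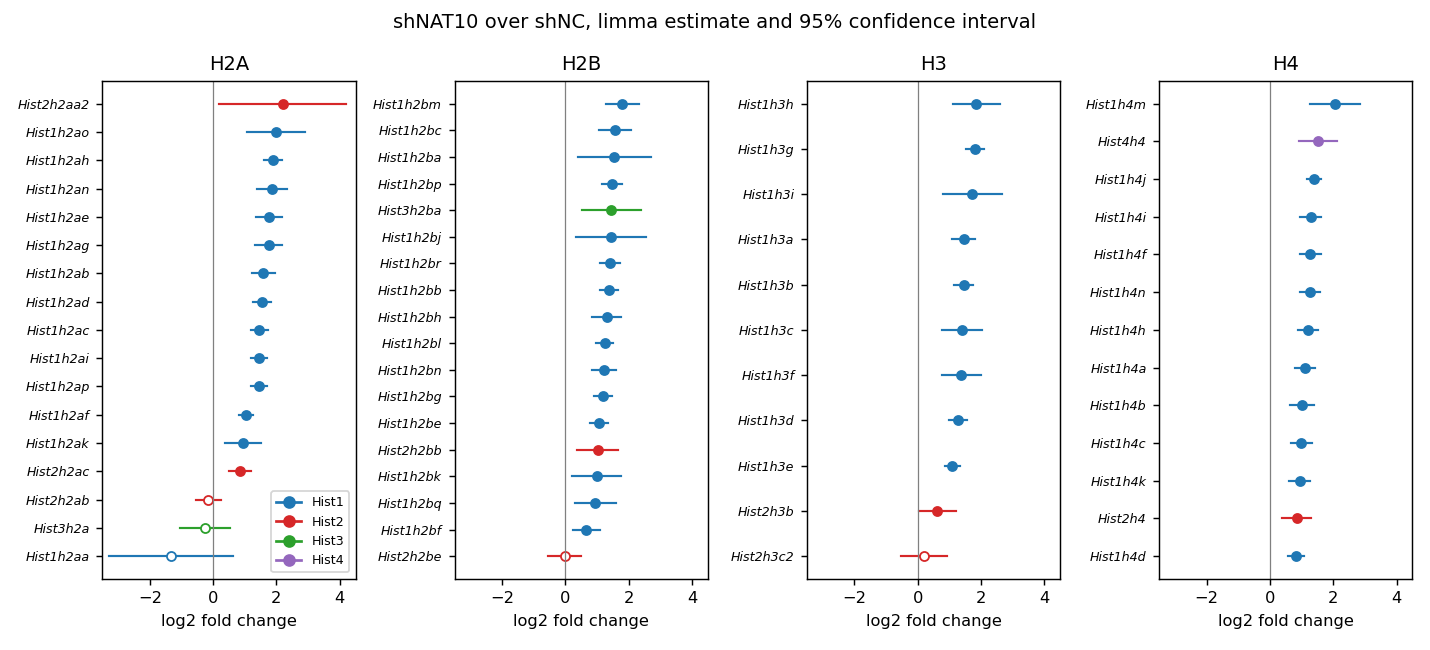
Log2 fold change of shNAT10 over shNC for each tested core histone gene with its 95% confidence interval from limma, by class and coloured by cluster, where filled points were called higher and open points were not. The 5 open points are *Hist1h2aa*, *Hist2h2ab*, *Hist2h2be*, *Hist2h3c2* and *Hist3h2a*, and 4 of them lie near 0.

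**Figure D3:**
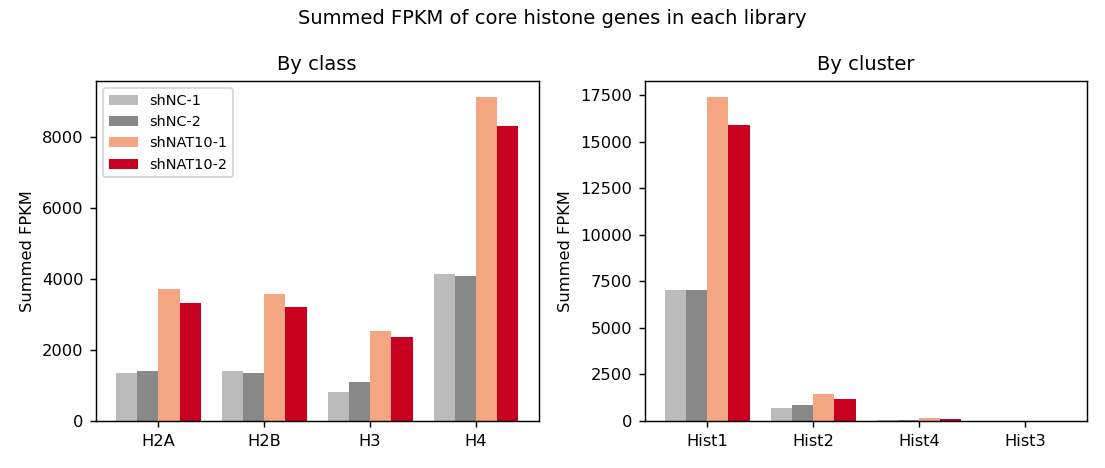
Summed FPKM of the core histone genes in each of the 4 libraries, by class on the left and by cluster on the right, with bars from 0. The shNAT10 bars are above the shNC bars in each class, H4 holds about as much as the other classes together, and the *Hist1* cluster holds most of the sum.

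H4 took 53.7% and 51.4% of the summed FPKM in shNC and 48.1% and 48.4% in shNAT10. H2A took 17.3% and 17.8% in shNC and 19.6% and 19.3% in shNAT10. H2B took 18.3% and 17.1% in shNC and 18.9% and 18.7% in shNAT10. The groups did not overlap in these 3 shares, but for H2B the gap between them was smaller than the difference between the shNC libraries. Shares of a library depend on each other, and their differences were not tested. H3 took 10.7% and 13.8% in shNC and 13.4% and 13.7% in shNAT10, so its groups overlapped.

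By cluster, the *Hist1* genes on chromosome 13 held 88.6% to 92.4% of the summed FPKM in each library. Of 48 genes 47 were called higher, with a median log2 fold change of 1.38. They lie in 2 stretches of the chromosome. In the stretch from 21715763 to 22043676 22 of 22 were higher (median 1.44), and in that from 23531050 to 23934851 25 of 26 were (median 1.29).

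The 10 *Hist2* genes lie on chromosome 3 from 96219865 to 96270132, and 5 of the 8 tested were called higher, with a median log2 fold change of 0.73. *Hist2h2ac*, the second highest H2A gene, had 281 and 338 FPKM with shNC against 575 and 531 FPKM with shNAT10. Both shNAT10 libraries were higher (log2 change 0.84, SE 0.13; limma, adjusted p = 0.0933), and the call was lost without shNAT10-1 (0.78).
*Hist2h3b* had 139 and 203 FPKM with shNC against 284 and 235 FPKM with shNAT10 (log2 change 0.62, SE 0.22). Its call was lost without shNC-1 (0.35), shNAT10-1 (0.48) or shNAT10-2 (0.76). *Hist2h4* had 107 and 138 FPKM with shNC against 243 and 197 FPKM with shNAT10 (log2 change 0.85, SE 0.18), and its call was lost without shNC-1 (0.67), shNAT10-1 (0.69) or shNAT10-2 (1.00).
*Hist2h2bb* had 84.0 and 74.5 FPKM with shNC against 203 and 127 FPKM with shNAT10 (log2 change 1.02, SE 0.24). Its call was lost without shNC-1 (1.11) or shNC-2 (0.93), and its value was 0.68 without shNAT10-1. *Hist2h2aa2* had 6.93 and 5.26 FPKM with shNC against 61.3 and 12.8 FPKM with shNAT10, so the shNAT10 libraries were far apart (log2 change 2.20, SE 0.76; limma, adjusted p = 0.268). Its value was 1.08 without shNAT10-1 and 3.32 without shNAT10-2, and the call was lost without shNC-1 (2.39), shNC-2 (2.00) or shNAT10-1. All of its stretches of 100 bases occur in transcripts of other genes, its copy *Hist2h2aa1* among them, so that reads within it could come from either.
The other *Hist2* genes were not called. *Hist2h2ab* had 61.6 and 80.6 FPKM with shNC against 65.0 and 62.1 FPKM with shNAT10 (log2 change -0.15, 95% confidence interval -0.54 to 0.25). *Hist2h2be* had 2.14 and 2.44 FPKM with shNC against 1.98 and 2.56 FPKM with shNAT10 (log2 change -0.02, interval -0.54 to 0.50). *Hist2h3c2* had 2.17 and 3.55 FPKM with shNC against 2.89 and 3.52 FPKM with shNAT10 (log2 change 0.19, interval -0.54 to 0.92). In all 3 the values of the groups overlapped, and the upper ends of the intervals were below the median of the *Hist1* genes (1.38).

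*Hist3h2ba* on chromosome 11 had 2.08 and 4.25 FPKM with shNC against 8.69 and 7.97 FPKM with shNAT10 (log2 change 1.45, SE 0.35). Its value was 0.95 without shNC-1, and the call was lost without shNAT10-1 (1.39) or shNAT10-2 (1.51). *Hist3h2a* had 0.992 and 1.57 FPKM with shNC against 0.928 and 1.16 FPKM with shNAT10 (log2 change -0.25, SE 0.30), with overlapping groups. Of its exon bases 33.0% also belong to *Trim17*.
*Hist4h4* on chromosome 6 had 36.2 and 57.1 FPKM with shNC against 131 and 128 FPKM with shNAT10, both far above shNC (log2 change 1.51, SE 0.23; limma, adjusted p = 0.0918). Its call was lost without shNAT10-1 (1.497) or shNAT10-2 (1.52). A test of the difference between the clusters was not run.

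Many H2A and H2B genes stand back to back and share the DNA between their starts. There were 12 such pairs with 176 to 306 bases between the annotated starts. One octamer serves as an example, chosen after its values were seen, because it is read forward in the promoter of *Hist1h2bg* and in reverse in that of *Hist1h2ae*. It lies at chr13:23571330-23571359, here on the plus strand, with the octamer in capitals.
Hist1h2bg: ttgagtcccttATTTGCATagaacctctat
Both genes of the pair were called higher in 10 of the 12 pairs. The H2A gene had the larger log2 fold change in 9 of the 12, and the median absolute difference within a pair was 0.47. *Hist1h2ap* and *Hist1h2br* were closest, with 1.45 and 1.41, whereas *Hist1h2ao* and *Hist1h2bq* had 1.99 and 0.94. In the pair of *Hist2h2ac* and *Hist2h2be*, 239 bases apart, the H2A gene was called higher (0.84) and the H2B gene was not (-0.02). The differences within pairs were not tested.

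**Figure D4:**
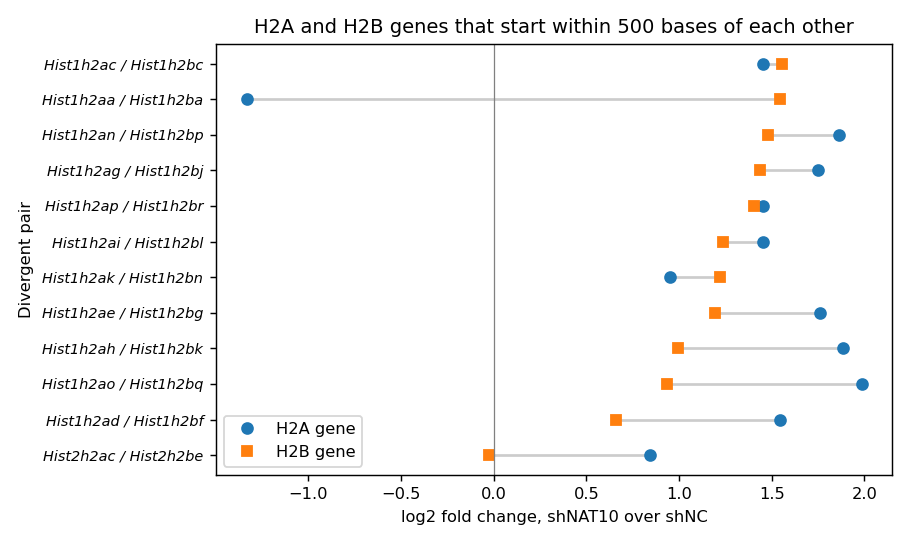
Log2 fold change of shNAT10 over shNC for the H2A gene (circle) and the H2B gene (square) of each of the 12 divergent pairs, joined by a line. The circle is to the right of the square in 9 pairs, and the pair of *Hist1h2aa*, with 4 fragments, and *Hist1h2ba*, with 15 fragments, is the widest apart.

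Genes were called over a wide range of levels. All 32 genes with a mean of at least 100 FPKM were called higher, as were 18 of 19 genes between 10 and 100 FPKM and 4 of 8 genes under 10 FPKM. Across the 59 genes, which share their libraries and are not independent replicates, Spearman's rho was -0.02 between mean FPKM and log2 fold change and 0.98 between the shNC and the shNAT10 means. FPKM divides by the annotated exon length, which runs from 312 to 4446 bases in these genes, so the order of levels rests on the gene models. By fragments, *Hist1h4c* (48132 in all libraries), *Hist1h4d* (31146) and *Hist1h2bb* (28486) came first.
Histone genes are close copies of one another, and 57 of the 61 share at least 1 stretch of 100 bases with another gene. Of the 23 tested genes with at least 50% of such stretches shared 22 were higher, with a median log2 fold change of 1.45, and of the 36 with less 32 were higher, with a median of 1.27. Among the 36 are the 4 genes that share no such stretch, *Hist1h2aa*, *Hist1h4d*, *Hist2h2be* and *Hist2h4*, of which 2 were higher, with a median of 0.40 and a highest value of 0.85. Values of single genes with many shared stretches are uncertain, since the program that counted the reads and its use of shared reads are not given in the sources used here. Exons of 10 of the 61 genes overlap exons of a gene other than a miRNA, and 17 overlap an annotated miRNA on the other strand.

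The linker histones, which bind the DNA between nucleosomes and are replication-dependent as well for the most part, were higher for 6 of 8 tested genes, beside 8.41% of all genes called higher, with a median log2 fold change of 1.23. *Hist1h1a* had 434 and 329.6 FPKM with shNC against 1400.4 and 1419 FPKM with shNAT10 (log2 change 1.90, SE 0.16; limma, adjusted p = 0.0456). *Hist1h1c* had 349 and 354 FPKM with shNC against 798 and 778 FPKM with shNAT10 (log2 change 1.16, SE 0.09; limma, adjusted p = 0.0443). *Hist1h1b* (log2 change 1.66) and *Hist1h1d* (1.84) also had an adjusted p under 0.05, while *H1f0*, the linker histone of resting cells, was called higher with a log2 fold change of 0.31 and an adjusted p of 0.191 in limma.

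Histone variants that are made throughout the cell cycle had a median log2 fold change of 0.08, and 2 of the 10 tested were called higher, beside 8.41% of all genes. *H2afz* had 256 and 287 FPKM with shNC against 310.1 and 327 FPKM with shNAT10 (log2 change 0.23, SE 0.10), and *H3f3a* had 76.6 and 83.9 FPKM with shNC against 79.1 and 78.1 FPKM with shNAT10 (log2 change -0.03, SE 0.09). Neither was called. *H2afx*, whose mRNA is known to end either in a stem-loop or in a poly(A) tail, had 175 and 137 FPKM with shNC against 378 and 347 FPKM with shNAT10 (log2 change 1.23, SE 0.15; limma, adjusted p = 0.0692). The other one called was *H3f3b* (log2 change 0.35), named after its value was seen.

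Of 31 tested factors that transcribe histone genes or process and degrade their mRNA, 3 were called higher and 0 lower (limma-voom called 2 of the 31), beside 8.41% of all genes called higher, with a median log2 fold change of 0.03. The 3 were *Casp8ap2* (0.62), a part of the histone locus body, *Ncbp2* (0.61), a cap-binding protein, and *Snrpb* (0.28), a protein of spliceosomal and histone-processing particles. *Npat*, the coactivator of histone transcription, had 4.29 and 4.25 FPKM in shNC and 4.37 FPKM in both shNAT10 libraries (log2 change 0.03). *Slbp* had 6.66 and 6.96 FPKM with shNC against 8.12 and 7.41 FPKM with shNAT10 (log2 change 0.19, SE 0.11; limma, adjusted p = 0.489). These 5 genes were named after their values were seen.
Of the 21 chaperones that carry histones, 5 were called higher and 1 lower, beside 8.41% and 7.83% of all genes, with a median of 0.16.

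Of 50 tested genes of DNA replication and S phase, 28 were called higher at the unadjusted threshold and 0 lower, beside 8.41% and 7.83% of all genes, with a median log2 fold change of 0.39 and a highest value of 0.91, beside a median of 1.30 for the core histone genes. None had an adjusted p under 0.05 in limma (0 of 50, against 20 in limma-voom). Of 25 genes of G2 and mitosis 12 were called higher and 0 lower, beside the same shares of all genes, with a median of 0.30. In limma 0 of the 25 had an adjusted p under 0.05. In limma-voom 7 did, beside 4.23% of all genes called higher and 3.64% lower. By flow cytometry of shNC and shNAT10 FGSCs, the paper reports an arrest in S phase and a smaller G2/M fraction after the knockdown. The part of the cell cycle in the histone values was not tested.

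**Figure D5:**
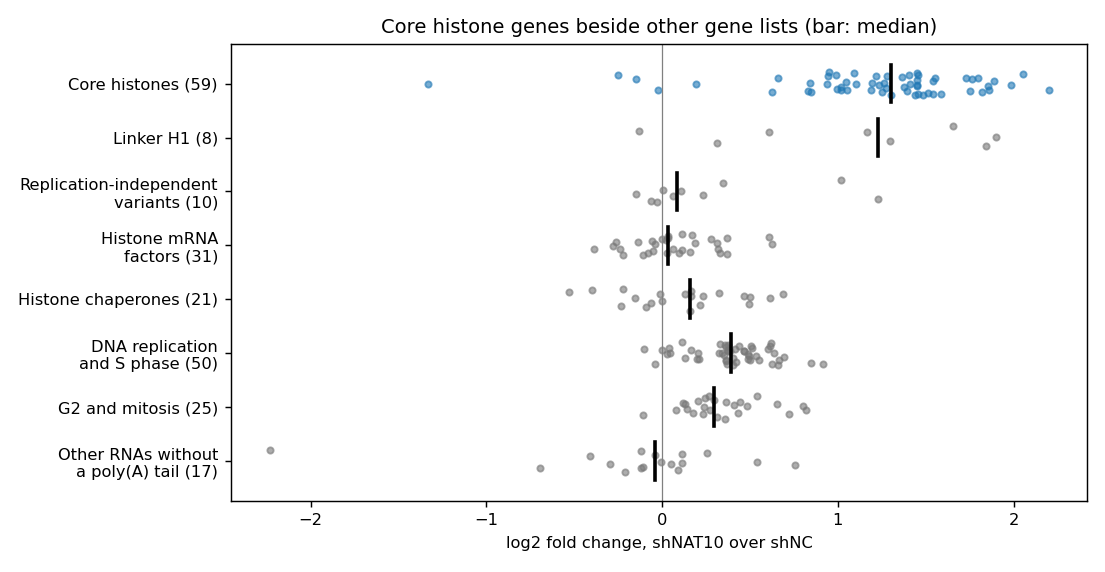
Log2 fold change of shNAT10 over shNC for each tested gene (points) of the core histones and of 7 other lists, with the median as a bar and the number of genes in brackets. The medians of the core histones (1.30) and the linker H1 genes (1.23) are to the right of the others, which lie between -0.04 and 0.39.

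The library preparation is recorded in different ways. The methods state rRNA depletion, while the labels describe isolation of mRNA with an oligo(dT) kit, a step that selects RNA with a poly(A) tail. The share of fragments in the listed rRNA-related loci was 46.5% and 35.7% in shNC and 23.7% and 25.8% in shNAT10, so it moved with the groups, and its part in the histone values was not tested. Of 17 other tested RNAs without a poly(A) tail 0 were called higher and 2 lower in limma, beside 7.83% of all genes called lower, and limma-voom called 2 of them. Their median log2 fold change was -0.04, and the 2 called were *Rn7s2* (-2.23) and *Malat1* (-0.41).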

How the data were processed

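The long RNA-seq libraries of FGSCs with shNC or shNAT10 (2 of each, grouped by the titles of the labels) were used, and the other assays of the paper were not analysed here. The authors aligned the reads with HISAT2 (build mm10 per the labels, which also list cutadapt and DESeq2, without versions) and deposited FPKM for 53465 genes per library. A second deposited table, with the authors' log2 fold changes and p-values beside 4 FPKM columns of the same libraries, was not used. The counting program and annotation are not given in the sources used here. Multiplying FPKM by the exon length of GENCODE M21 (99.8% of genes matched) gave whole fragments, within 0.02, for 96.0% to 96.6% of values under 50 fragments. Depth limits low genes, and counting error alone is covered by fragment numbers, since PCR copies are not told apart.

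In R 4.3.3, limma 3.58.1 (lmFit, eBayes with trend, two-sided, no covariate) was fitted to log2(FPKM + 0.1) of shNC and shNAT10 over 20116 genes, those whose FPKM averaged 0.1 or more. This scale makes the fold changes of low genes too small. Adjusted p-values are Benjamini-Hochberg over all genes tested, and the fit was tested on simulated data. Sums, sequence searches and plots used Python 3.11.15, numpy 2.4.6, pandas 2.3.3, scipy 1.17.1 and matplotlib 3.10.9. The naming rule took *Nat10* and all *Hist2*, *Hist3* and *Hist4* genes. In each class of *Hist1* it took the 3 highest expressed genes and those with the largest and smallest change. Of other lists it took the 3 highest expressed and those with an adjusted p under 0.05, though some of these were only counted. Outside the rule, *H1f0*, *Rn7s2*, *Malat1*, some list members at 0 and genes of the back-to-back pairs were named with their values known, as were those so marked above. Members, lists and tests were chosen with earlier results of these data known, so no test of a list is given.

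Alternatives were pseudocounts of 1 and 0.01, no filter, a filter at a mean of 1 FPKM, scaling by median ratio, by the FPKM total of protein-coding genes other than histone genes and by quantiles, no trend, the replicate block, each library left out, and limma-voom on fragments, the last added after seeing the data. Across 12138 genes the deviations of same-numbered libraries had a Pearson's r of -0.00168, so the numbers did not pair the libraries.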

Additional observations from a re-analysis of the deposited data

How the results depend on the processing

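The number of core histone genes called higher (54) was 50 to 54 under the alternatives that kept all 4 libraries, and 36 to 47 with a library left out. The number called lower was 0 to 1 with a library left out, the 1 being *Hist2h2ab* without shNC-1. The number with an adjusted p under 0.05 (20) changed most: it was 0 with pseudocounts of 1 and of 0.01, without a filter, without the trend and with the replicate block, 0 with any library left out, 39 at a mean FPKM of at least 1, 30 when scaled to the total of protein-coding genes other than histones or by quantiles and 53 in limma-voom, and the cause was not tested. With the replicate block, which pairs libraries by their number, 54 genes were called higher.

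The median log2 fold change of the core histone genes was 1.16 to 1.39 with a library left out. That range was 1.39 to 1.55 for H2A, 1.13 to 1.38 for H2B, 1.203 to 1.61 for H3, 1.15 to 1.23 for H4, 1.26 to 1.41 for *Hist1*, 0.51 to 0.91 for *Hist2*, 0.20 (without shNC-1) to 1.00 (without shNC-2) for *Hist3* and 1.18 to 1.84 for *Hist4*. The H4 median was 1.28 when scaled to the total of protein-coding genes other than histones, which moved the median of all genes to 0.09. The sign turned for 4 genes that were not called. *Hist2h2be* was 0.062 with that scaling and ran from -0.20 to 0.16 with a library left out (0.067 without shNC-2), *Hist2h3c2* from -0.15 (without shNC-1) to 0.53, *Hist2h2ab* from -0.34 to 0.046 (without shNC-2) and *Hist3h2a* from -0.56 to 0.057 (without shNC-2). Of the values of named genes under the alternatives, 396 kept their direction and side of the threshold, 30 lost the call and 1 gained it.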

Other observations

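The 3 genes with a histone symbol that the table lists as pseudogenes were outside the rule. *Hist1h2aj* had 24.9 and 26.6 FPKM with shNC against 76.95 and 51.0 FPKM with shNAT10, with a log2 fold change of 1.28 (SE 0.21). *Hist1h2al* had 22.6 and 16.2 FPKM with shNC against 40.9 and 39.3 FPKM with shNAT10, with a log2 fold change of 1.06 (SE 0.18). *Hist3h2bb-ps* had 6.04 and 6.52 FPKM with shNC against 15.6 and 15.1 FPKM with shNAT10, with a log2 fold change of 1.28 (SE 0.10). In each of them both shNAT10 libraries were above both shNC libraries. Reads of these genes and of their protein-coding copies may not be told apart.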
